A study of Rattus norvegicus with 34 samples.

Results

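Gene expression was measured in whole rat embryos on gestational day 12 after the pregnant dams had received EMD 82571, a compound that the series title calls a calcium sensitizer. The arrays were chosen by their source label, which names whole embryo, day 12 and either 50 or 150 mg of EMD. The amounts are read here as mg/kg/day of EMD 82571 and called the low and the high dose. The choice gave 4 of the 34 arrays of the series, 2 for each dose. Each was a small 2-colour cDNA array with Cy5-labelled RNA from treated embryos and Cy3-labelled RNA from vehicle embryos, so the comparison with vehicle lies within the array. All animals were Wistar rats, and the label of the vehicle channel names tissue, strain and vehicle but no day. The dosing text gives a pair of windows of gestational days without saying which group had which. It is not stated if the pair of arrays at each dose holds RNA of separate embryos, pools or repeats of 1 extract, or if vehicle RNA was shared. The p-values below therefore measure only spread between arrays, pooled over all groups of the series, and that spread may be technical.

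A calcium sensitizer raises the response of the contractile apparatus to calcium without raising calcium itself, and such compounds were developed as heart drugs. On day 12 the rat embryo is in organogenesis: the heart beats, vessels and somites form, limb buds grow out, the skeleton is still mesenchyme and early cartilage, and the liver is a bud that has only begun to express hepatocyte genes. Retinoic acid, the reference teratogen of the series, is the hormone form of vitamin A, which acts through nuclear receptors to set position along the body axis. The arrays carried a chosen set of genes, rich in P450s, collagens, integrins, growth factors and chaperones, and 238 named probes could be read on these 4 arrays.

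Between 653 and 857 of the 1024 spots of an array were unmarked, and between 201 and 237 of the 238 named probes lay above background in at least 1 channel. Median signal over background was 2.00 to 2.62 for vehicle and 2.04 to 2.56 for treated RNA. Precision is limited by there being 2 arrays a dose. Ratios of the low-dose arrays had a Pearson r of 0.69 over 193 probes and those of the high-dose arrays 0.66 over 210, a description across genes of arrays that may share RNA. The vehicle channel carried markers of embryonic tissue. The cartilage collagens Col2a1, Col9a1 and Col11a1 were brighter than in the vehicle channel of maternal liver by 5.64, 2.07 and 2.02 on the log2 scale, the smooth muscle actin Acta2 by 2.09 and the neural adhesion gene L1cam by 1.54, without overlap of embryo and liver arrays (4 of each, but 3 liver arrays for Col11a1). Acan, the cartilage proteoglycan, had a value on 1 embryo array and differed by -0.44, and the neural marker Calb1 differed by -0.0093, with overlap. The hepatocyte genes A2m, Cyp2e1, Cyp2c7 and Serpina1 differed the other way, by -7.54, -7.17, -5.55 and -4.94. Of 6 leukocyte markers, Csf2 and Csf3 were below background in the vehicle channel on all 4 arrays and none was above it on all 4.

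In the fit over all 15 groups of the series few genes passed at either dose, and their changes were small. At the low dose 25 of 194 probes tested passed an adjusted p of 0.05, which is 12.9%, with 7 higher (3.61%) and 18 lower (9.28%) than vehicle. At the high dose 14 of 211 passed, which is 6.64%, with 5 higher (2.37%) and 9 lower (4.27%). The folds of the genes that passed ran from 1.15 to 1.27 upward and from 1.11 to 1.49 downward at the low dose. High-dose folds ran from 1.12 to 1.21 upward and from 1.18 to 1.45 downward. The median log2 ratio over all probes tested was 0.00 at either dose, with 96 of 194 above 0 at the low dose and 103 of 211 at the high dose. Adjusted p values are two-sided and from limma, which fitted all 15 groups of the series at once. Errors are its standard errors, with n = 2 arrays a dose.

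These counts depended on the retinoic acid arrays in the fit and on single arrays. The day-12 groups with retinoic acid hold arrays of unlike array number, called array batches A and B, whose ratios in the embryo differed by a median of 0.23 (log2), and this spread enters the pooled variance. The sample titles differ between these batches as well, so dosing cannot be told apart from array batch. With a mean for each batch, 55 probes passed at the low dose (28.4%) and 56 at the high dose (26.5%), among them all 25 and all 14. The deposited ratios, centred on the median, gave 67 higher of 88 past the threshold at the low dose (76.1% higher, against 28.0% here) and 72.5% higher of 40 at the high dose (against 35.7%). Without low-dose array 1 or array 2 the low-dose count was 10 or 6, and without high-dose array 1 or array 2 the high-dose count was 7 or 9. With either array of the dose left out, 3 of the 24 named low-dose calls still passed (Hspa4, Col5a2 and Cyp4a1, the last read on array 2 alone and so with no value without it) and 2 of the 14 high-dose calls (Col5a2 and Cyp2d2). Each other of these calls was lost without 1 or both of its own arrays. Dyes were never swapped, so a dye effect of a gene is part of its ratio over vehicle. The grid positions of these arrays carry clone numbers, and 234 of the 238 names were taken from the same position on named arrays of the series and 4 by clone number. Ratios in whole embryo cannot tell fewer cells of a type from less RNA per cell.

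Flt4, Hspa4, Col5a2, Serpina1 and Foxj1 passed at both doses, in the same direction, out of 185 probes tested at both. Flt4 encodes a receptor for the vascular endothelial growth factors VEGF-C and VEGF-D, Hspa4 a cytosolic chaperone of the HSP110 family, and Col5a2 a chain of type V collagen, which seeds collagen fibrils. Serpina1 encodes alpha-1-antitrypsin, a protease inhibitor secreted by hepatocytes, and Foxj1 a transcription factor of motile cilia. The promoters of 4 of them are shown because these genes passed at both doses. Each runs from 250 bases before to 50 bases after the RefSeq start of the gene on build GRCr8, 5′ to 3′ on the strand of the gene. For Foxj1 none is shown. Capitals mark the GC box GGGCGG or its reverse complement CCGCCC. Col5a2 lies at chr9:55090102-55090401 on the minus strand, Flt4 at chr10:34414584-34414883 on the plus strand, Hspa4 at chr10:37949786-37950085 on the minus strand and Serpina1 at chr6:128653076-128653375 on the minus strand.
Col5a2: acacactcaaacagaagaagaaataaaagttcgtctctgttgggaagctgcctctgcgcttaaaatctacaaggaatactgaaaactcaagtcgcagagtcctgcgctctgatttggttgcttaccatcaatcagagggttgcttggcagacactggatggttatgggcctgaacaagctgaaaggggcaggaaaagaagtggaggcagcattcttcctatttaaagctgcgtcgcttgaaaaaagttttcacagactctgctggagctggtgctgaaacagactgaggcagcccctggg
Flt4: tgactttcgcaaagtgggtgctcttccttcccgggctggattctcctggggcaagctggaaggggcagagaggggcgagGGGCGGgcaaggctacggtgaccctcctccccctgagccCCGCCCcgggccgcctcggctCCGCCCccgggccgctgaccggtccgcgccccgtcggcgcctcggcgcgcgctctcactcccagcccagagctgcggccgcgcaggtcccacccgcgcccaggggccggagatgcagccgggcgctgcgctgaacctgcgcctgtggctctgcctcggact
Hspa4: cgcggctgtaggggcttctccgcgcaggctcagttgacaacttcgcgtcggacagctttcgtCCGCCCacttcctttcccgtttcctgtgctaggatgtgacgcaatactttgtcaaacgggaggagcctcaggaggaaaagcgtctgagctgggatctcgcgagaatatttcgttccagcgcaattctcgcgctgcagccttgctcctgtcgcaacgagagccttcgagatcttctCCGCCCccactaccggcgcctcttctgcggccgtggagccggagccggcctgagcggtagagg
Serpina1: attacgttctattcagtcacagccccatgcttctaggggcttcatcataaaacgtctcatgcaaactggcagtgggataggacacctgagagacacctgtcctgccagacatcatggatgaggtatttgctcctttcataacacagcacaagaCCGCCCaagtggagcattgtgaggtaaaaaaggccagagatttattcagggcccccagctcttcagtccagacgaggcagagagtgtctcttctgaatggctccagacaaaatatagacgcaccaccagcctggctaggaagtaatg
The Flt4 window held 3 GC boxes, Hspa4 2, Serpina1 1 and Col5a2 none. In all, 33.1% of 33469 rat promoters of this length held at least 1, and 54.1% of the 170 found for genes of the array. The CCAAT box (CCAAT, in 37.5% of promoters), the TATA box (TATAAA, 14.2%) and the core of the heat shock element (GAANNTTC, 8.59%) were searched on both strands as well. None of these occurred in the 4 windows, which says only that these letters are not there.

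Among the genes that rose, Flt4 had log2 ratios of 0.38 and 0.31 on the low-dose arrays and of 0.26 and 0.24 on the high-dose arrays. All 4 arrays lay above 0, the low-dose pair higher. The fold over vehicle was 1.27 at the low dose (log2 0.35 ± 0.07, adjusted p = 0.00155) and 1.19 at the high dose (0.25 ± 0.07, adjusted p = 0.0217). Its normalized intensity was 171 to 267 in the vehicle channel, a dim probe. From the deposited ratios, centred on the median, the high-dose value of Flt4 was -0.10, the opposite direction. The high-dose call was also lost without either high-dose array and with the gene's mean over the groups subtracted.

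Hspa4 had 0.26 and 0.27 at the low dose and 0.19 and 0.23 at the high dose. All 4 values lay above 0 within a narrow range, and the vehicle intensity of its probe was 2071 to 3002. It rose 1.20-fold at the low dose (0.26 ± 0.04, adjusted p = 0.000155) and 1.16-fold at the high dose (0.21 ± 0.04, adjusted p = 0.00134). Without high-dose array 2 the high-dose adjusted p was 0.0666, and the high-dose call was also lost with the gene's mean over the groups subtracted.

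Among the genes that fell, Col5a2 had -0.29 and -0.32 on the low-dose arrays and -0.34 and -0.37 on the high-dose arrays. The 4 values lay close together, with the high dose lower. Col5a2 fell 1.24-fold at the low dose (-0.31 ± 0.05, adjusted p = 0.000155) and 1.28-fold at the high dose (-0.36 ± 0.05, adjusted p = 2.6e-05), and it passed with either array of a dose left out. From the deposited ratios its low-dose value was 0.12, the opposite direction.

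Serpina1 showed -0.60 and -0.33 at the low dose and -0.40 and -0.51 at the high dose. It fell 1.38-fold (-0.47 ± 0.11, adjusted p = 0.00959) and 1.37-fold (-0.46 ± 0.11, adjusted p = 0.0116). Over the other 13 groups of the series its mean log2 ratio was -0.44, from -3.07 to 0.95, so the series held wider swings of this gene than these. Serpina1 lost its call without low-dose array 1 (adjusted p = 0.230) and without either high-dose array. With its mean over the groups subtracted, its values were -0.02 and -0.01. Foxj1 showed -0.30 and -0.45, then -0.36 and -0.53. It fell 1.30-fold (-0.38 ± 0.12, adjusted p = 0.0409) and 1.36-fold (-0.44 ± 0.12, adjusted p = 0.0233), and neither dose passed with 1 array left out.

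**Figure D1:**
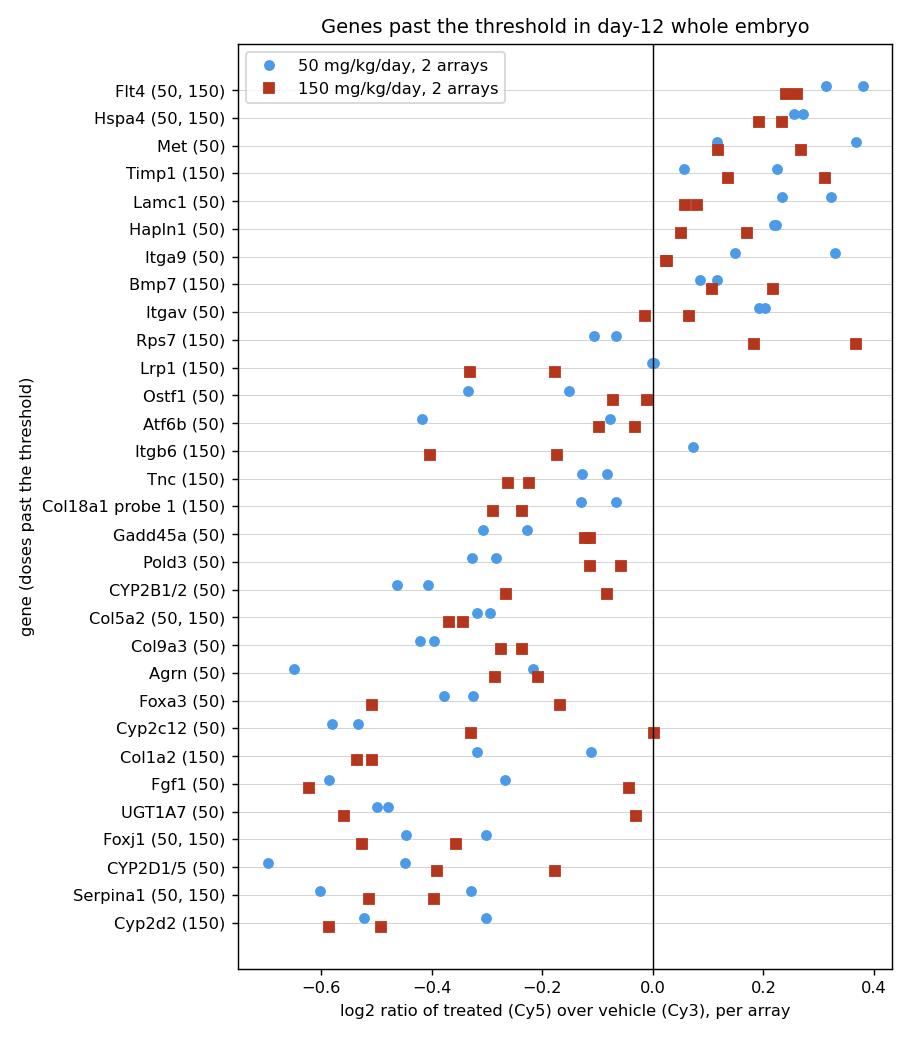
Log2 ratio of treated over vehicle on each day-12 whole-embryo array for the genes that passed at 1 or both doses and are named by the rule. Circles are the 2 low-dose and squares the 2 high-dose arrays, with the doses passed in brackets. Flt4 and Hspa4 lie above 0 and Col5a2, Foxj1 and Serpina1 below 0 on all 4 arrays, while Rps7 lies below 0 at the low dose and above 0 at the high dose.

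Hepatocyte and drug metabolism genes held several of the low-dose calls and 2 of the 9 lower ones at the high dose (Serpina1 and Cyp2d2). Without background subtraction the low-dose calls of Serpina1, Cyp2c12, Foxa3, CYP2B1/2, UGT1A7 and Cyp4a1 were lost, with log2 ratios of -0.13 to -0.27, and the count over all probes became 10 higher and 9 lower. Of 17 hepatocyte markers on the array, 10 were tested at the low dose, all 10 had a log2 ratio below 0, and 3 fell (Serpina1, Cyp2c12 and Foxa3), with a median of -0.36 against 0.00 over all probes. Of all probes at that dose, 98 of 194 lay below 0 and 9.28% fell. Of 14 markers tested at the high dose, 13 were below 0 and 1 fell (Serpina1), with a median of -0.13. There 108 of 211 of all probes lay below 0 and 4.27% fell. With a mean for each retinoic acid batch, 7 of 10 and 5 of 14 markers fell, against 33 of 194 and 34 of 211 of all probes. The summed intensity of the 11 markers with a value on all 4 arrays was 1759 to 1768 for vehicle and 1317 to 1377 for treated RNA at the low dose. For the high dose it was 1663 to 1757 and 1289 to 1404. Treated stood at 0.748 to 0.779 of vehicle at the low dose and at 0.775 to 0.799 at the high dose, so no array overlapped. A2m, Cyp2c7, Serpina1, Hnf4a and Egf were above background in both channels on all 4 arrays, and Cyp2c13 was below it in the vehicle channel on all 4. Whether the embryos differed in liver tissue was not tested.

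Cyp2c12, a P450 of female rat liver, had log2 ratios of -0.53 and -0.58 at the low dose and of 0.00 and -0.33 at the high dose. It fell 1.47-fold at the low dose (-0.56 ± 0.17, adjusted p = 0.0348), and its high-dose mean was -0.16 (adjusted p = 0.621). CYP2D1/5, a probe for P450s that metabolize basic drugs, had -0.45 and -0.70 and then -0.18 and -0.39. It fell 1.49-fold at the low dose (-0.57 ± 0.12, adjusted p = 0.00266), which is the lowest low-dose value past the threshold, and it turned to 0.57 in the deposited ratios. The related Cyp2d2 fell at the high dose, with -0.49 and -0.59 (-0.54 ± 0.10, 1.45-fold, adjusted p = 0.00134). Its low-dose ratios were -0.52 and -0.30, but it lay above background on too few low-dose arrays to be tested. Both probes read near background, at vehicle intensities of 116 to 185 and 146 to 158.

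CYP2B1/2, the phenobarbital-inducible P450s, fell at the low dose, with -0.41 and -0.46 (-0.44 ± 0.12, adjusted p = 0.0269). The high-dose ratios of -0.27 and -0.08 could not be tested, with too few arrays above background. Of 20 probes for phase I enzymes on the array, 9 were tested at the low dose and 3 fell (CYP2B1/2, Cyp2c12 and, on 1 array alone, Cyp4a1), with a median of -0.37. Of 18 tested at the high dose, 1 fell (Cyp2d2), with a median of -0.10, and none rose at either dose. Over all probes 9.28% fell at the low dose and 4.27% at the high dose. Cyp4a1, a fatty acid hydroxylase, had a usable value on low-dose array 2 alone (-0.51). Its call, counted among the 25, assumes that this array varied like those of other groups. Among 13 conjugating enzymes, 5 were tested at the low dose and UGT1A7, a glucuronosyltransferase, fell, with -0.50 and -0.48 (-0.49 ± 0.12, adjusted p = 0.0104). None of the 8 tested at the high dose passed.

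Cyp2c7, a retinoic acid hydroxylase of rat liver, had the lowest high-dose ratio of all probes without passing. Its ratios were -0.70 and -1.13 at the low dose and -0.73 and -0.90 at the high dose, with no array near 0. The adjusted p was 0.0862 for -0.92 ± 0.34 and 0.178 for -0.81 ± 0.34. With a mean for each retinoic acid batch it was 1.64e-10 and 4.32e-09. HSST, a probe for hydroxysteroid sulfotransferases, had -1.13 and -0.87 and then -0.32 and -0.70 (adjusted p = 0.0789 and 0.479).

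Of the transcription factors that direct hepatocyte genes, Foxa3 fell at the low dose, with -0.33 and -0.38 (-0.35 ± 0.11, adjusted p = 0.0449). Its high-dose ratios of -0.51 and -0.17 were not tested for lack of signal. Hnf4a, the nuclear receptor that maintains hepatocyte identity, had -0.24 and -0.26, then -0.24 and -0.51, below 0 on all 4 arrays (adjusted p = 0.453 and 0.260). In the fit with a mean for each retinoic acid batch these were 0.00289 and 0.000109. Of 13 nuclear receptors and hepatic factors, 12 were tested at the low dose with 1 lower, at a median of -0.10, where 9.28% of all probes fell. None of 11 tested at the high dose passed, at a median of -0.03.

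Of 9 fibrillar and interstitial matrix genes, all tested, 1 fell at the low dose (Col5a2) and 3 at the high dose (Col1a2, Col5a2 and Tnc), where 9.28% and 4.27% of all probes fell. The medians were -0.08 and -0.14, and none rose. Col1a2, a chain of type I collagen, had -0.32 and -0.11 at the low dose and -0.51 and -0.54 at the high dose, the high-dose pair below the low-dose pair. It fell 1.44-fold at the high dose (-0.52 ± 0.11, adjusted p = 0.00241) and had an adjusted p of 0.194 at the low dose (-0.22 ± 0.11). Without either high-dose array and with the deposited ratios neither Col1a2 nor Tnc passed. Tenascin-C, encoded by Tnc and laid down around migrating cells, had -0.13 and -0.08, then -0.22 and -0.26, and fell at the high dose (-0.24 ± 0.07, adjusted p = 0.0290).

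Dcn, which encodes decorin, a small proteoglycan that binds collagen fibrils, lay below vehicle on every array without passing. Its ratios were -0.76 and -0.48 at the low dose and -0.71 and -0.60 at the high dose. Adjusted p values were 0.0557 (-0.62 ± 0.21) and 0.0709 (-0.65 ± 0.21). With a mean for each retinoic acid batch they were 1.60e-08 and 1.28e-08, since Dcn differed widely between those batches.

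Among 7 cartilage and bone genes, 5 were tested at each dose. Of these Col9a3, a chain of the cartilage collagen type IX, fell at the low dose, where 9.28% of all probes fell. Its ratios were -0.40 and -0.42, then -0.27 and -0.24, with the low-dose pair lower. The low-dose value was -0.41 ± 0.11 (adjusted p = 0.0201) and the high-dose value -0.26 ± 0.11 (adjusted p = 0.205). Col2a1, the main cartilage collagen, had 0.00 and 0.02, then -0.08 and -0.19 (adjusted p = 0.983 and 0.411). Outside that list, Hapln1, the link protein of cartilage proteoglycan, rose at the low dose with 0.22 on either array (0.22 ± 0.07, adjusted p = 0.0333). The summed intensity of the 3 cartilage markers with a value on all arrays was 0.986 to 0.991 of vehicle at the low dose and 0.883 to 0.942 at the high dose.

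Of 16 basement membrane genes, all 16 were tested at the low dose, where 1 rose and 1 fell, and 15 at the high dose, where 1 fell. These shares were near those of all probes, of which 12.9% and 6.64% passed. Lamc1, the laminin gamma chain common to most laminins, had 0.32 and 0.23 and then 0.08 and 0.06. It rose 1.21-fold at the low dose (0.28 ± 0.07, adjusted p = 0.0127). Agrn, which encodes the heparan sulfate proteoglycan agrin, fell at the low dose, where array 2 stood apart with -0.65 against -0.22 on array 1 (-0.43 ± 0.08, adjusted p = 0.000717). On the high-dose arrays Agrn had -0.21 and -0.29 (adjusted p = 0.0576). Col18a1, measured by a pair of probes, encodes the parent of endostatin, and its probe 1 fell at the high dose, with -0.24 and -0.29 (-0.26 ± 0.05, adjusted p = 0.00134). The deposited ratios gave 0.18 for that probe. Probe 2 of the gene had a mean of 0.06 at the low dose and -0.06 at the high dose and did not pass at either.

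Of 15 integrins and contact genes tested at the low dose, Itgav (0.19 and 0.20, adjusted p = 0.0178) and Itga9 (0.15 and 0.33, adjusted p = 0.0349), both integrin alpha chains, rose and none fell, a share near the 12.9% of all probes, and both calls were lost without either low-dose array. Of 16 tested at the high dose, Lrp1 and Itgb6 fell and none rose, where 4.27% of all probes fell. Lrp1, an endocytic receptor for proteases and lipoproteins, had 0.00 and 0.00 on the low-dose arrays and -0.18 and -0.33 on the high-dose arrays (-0.25 ± 0.05, adjusted p = 0.00134). Itgb6, an epithelial integrin chain, had -0.40 and -0.17 at the high dose (adjusted p = 0.0313). Timp1, an inhibitor of matrix metalloproteases, rose at the high dose, with 0.14 and 0.31 (0.22 ± 0.06, 1.17-fold, adjusted p = 0.0154), against 0.06 and 0.22 at the low dose (adjusted p = 0.104).

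**Figure D2:**
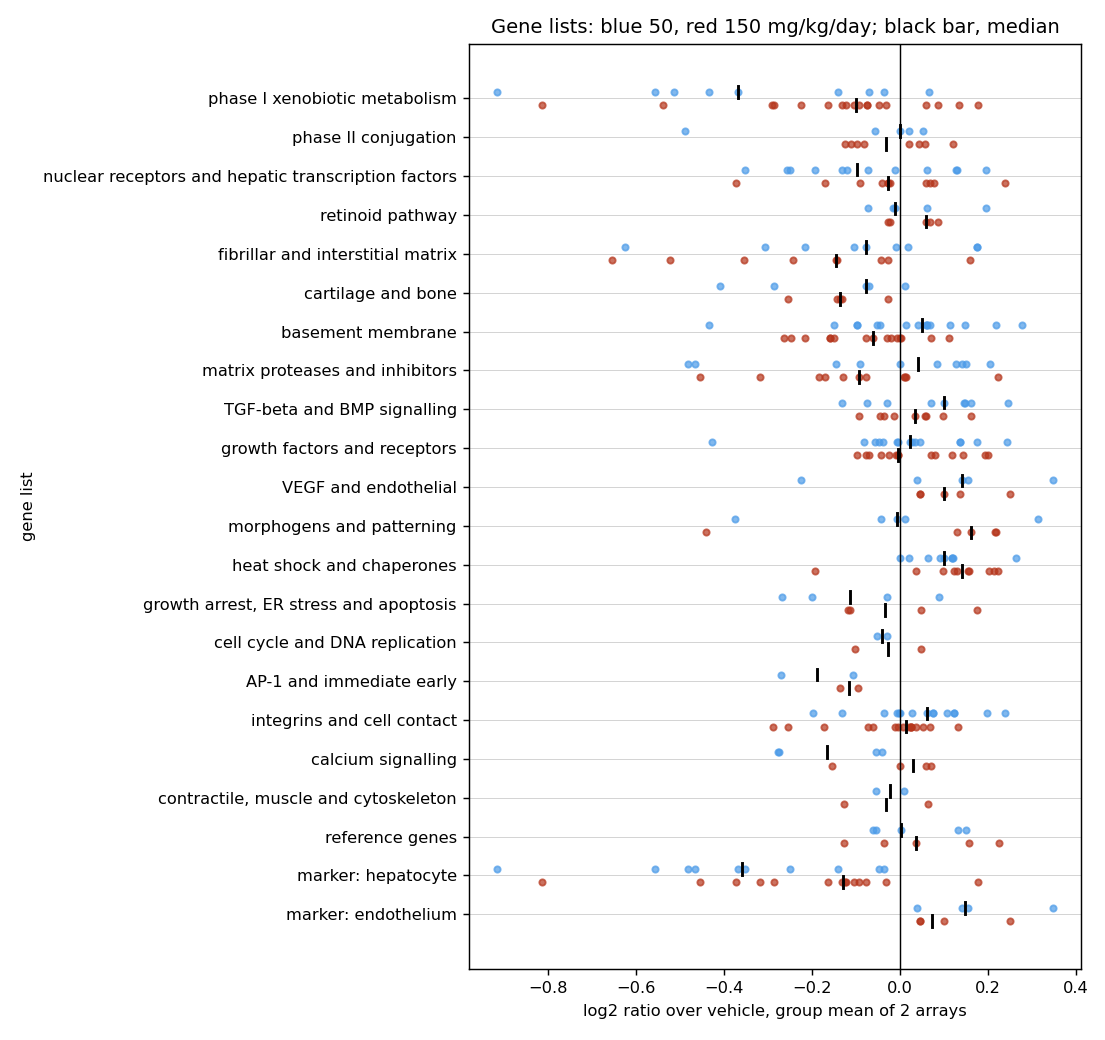
Mean log2 ratio over vehicle of every tested member of each gene list, blue for the low and red for the high dose, with the median of the list as a black bar. Hepatocyte markers and phase I genes lie mostly left of 0, with medians of -0.36 and -0.37 at the low dose, while the endothelial markers lie right of 0 at both doses.

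All 4 endothelial markers tested had a positive log2 ratio at either dose, with medians of 0.15 and 0.07, and Flt4 was the member that passed. Over all probes 96 of 194 and 103 of 211 were positive. In the other 13 groups of the series Flt1 was above 0 in 10, Kdr in 9, Pecam1 in 9 and Flt4 in 6. Flt1 and Kdr, the other receptors of the VEGF family, had 0.12 and 0.19 and then 0.07 and 0.02 for Flt1, and 0.19 and 0.09 and then 0.14 and 0.05 for Kdr. The low-dose adjusted p was 0.0557 for Flt1 and 0.161 for Kdr. Their summed intensity with Pecam1 and Flt4 was 1.11 to 1.14 of vehicle at the low dose and 1.06 to 1.09 at the high dose, from vehicle sums of 868 to 1107 and 870 to 936.

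Met, the receptor of hepatocyte growth factor, had 0.12 and 0.37 at the low dose and 0.27 and 0.12 at the high dose, above 0 on all 4 arrays with a wide spread. It rose at the low dose (0.24 ± 0.07, adjusted p = 0.0238) and had an adjusted p of 0.101 at the high dose. Its ligand Hgf had 0.12 and 0.23, then 0.14 and 0.10 (adjusted p = 0.0557 and 0.244). Fgf1, a fibroblast growth factor read near background, fell at the low dose, with -0.59 and -0.27 (-0.43 ± 0.11, adjusted p = 0.0152). Of 15 growth factors and receptors tested at the low dose, Met rose and Fgf1 fell, a share near the 12.9% of all probes that passed. None of 14 passed at the high dose, where 6.64% of all probes passed.

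Bmp7, a bone morphogenetic protein needed for kidney and eye, was the 1 of 9 TGF-beta and BMP genes that passed, at the high dose, where 6.64% of all probes passed. Its ratios were 0.12 and 0.08 at the low dose and 0.22 and 0.11 at the high dose (0.16 ± 0.04, adjusted p = 0.0183). When the retinoic acid batches had separate means, Tgfb2 (adjusted p = 0.0266), Tgfbr1 (adjusted p = 0.00723) and Tgfbr2 (adjusted p = 0.00058) also rose at the low dose. These were 3 of 9 tested, where 22 of 194 of all probes rose and 28.4% passed. Tgfbr2 was above 0 in all 13 other groups of the series as well, with a mean of 0.16. Of 5 patterning genes Foxj1 alone passed in the fit over 15 groups, where 12.9% and 6.64% of all probes passed. The Wnt receptor Fzd3 had 0.29 and 0.33, then 0.20 and 0.24, above 0 on all 4 arrays with an adjusted p of 0.0523 at the low dose and 0.233 at the high dose. Under separate retinoic acid batch means Fzd3 passed at the low dose (adjusted p = 0.0199) and Pax9, a transcription factor of the sclerotome, at the high dose (0.22, adjusted p = 0.0291).

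Most chaperone genes lay slightly above vehicle. Of 9 tested at the low dose, 8 had a positive ratio, against 96 of 194 over all probes, with a median of 0.10. Of 10 tested at the high dose, 9 were positive, against 103 of 211, with a median of 0.14. Hspa4 alone passed at each dose, a share near the 12.9% and 6.64% of all probes that passed. Hspa5, the chaperone of the endoplasmic reticulum, had -0.02 and 0.15, then 0.24 and 0.20 (high dose 0.22 ± 0.08, adjusted p = 0.0942). Serpinh1, the collagen chaperone HSP47, went against the list at the high dose, with -0.13 and -0.25 (adjusted p = 0.0916). With a mean for each retinoic acid batch, 5 of the 10 were higher and Serpinh1 lower at the high dose, where 26.5% of all probes passed.

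Of 4 growth arrest and stress genes, Gadd45a and Atf4 fell at the low dose, where 9.28% of all probes fell, and none passed at the high dose. Gadd45a, a sensor of DNA damage, fell at the low dose, with -0.23 and -0.31 (-0.27 ± 0.06, adjusted p = 0.00450), and had -0.12 and -0.11 at the high dose. Atf4, the transcription factor of the integrated stress response, had -0.29 and -0.11 (-0.20 ± 0.06, adjusted p = 0.0201). Atf6b, a factor of the unfolded protein response outside that list, had -0.08 and -0.42 and passed at the low dose (adjusted p = 0.0104). The deposited ratios turned Atf4 and Atf6b to 0.24 and 0.37. Ddit3, the proapoptotic target of Atf4, had -0.02 and 0.20, then 0.19 and 0.16 (adjusted p = 0.832 and 0.621). Pold3, a subunit of DNA polymerase delta, also fell at the low dose, with -0.28 and -0.33 (adjusted p = 0.0201), as did Ostf1, an osteoclast stimulating factor, with -0.15 and -0.34 (adjusted p = 0.0277). The discoidin domain receptor Ddr1, a collagen receptor outside the naming rule, was the last of the 25, at -0.15 (adjusted p = 0.0464).

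Calcium and retinoid genes bear on the 2 compounds of the series, and none of those measured passed in the fit over 15 groups. Once each retinoic acid batch had its own mean, Calb1 (-0.28, adjusted p = 0.0415) fell and Rxra, a retinoid X receptor (0.20, adjusted p = 0.0384), rose at the low dose, and Plcd1 (-0.16, adjusted p = 0.0109) fell at the high dose. In that setting 28.4% of all probes passed at the low dose and 26.5% at the high dose. In the fit over 15 groups, none of 4 probes for calcium signalling passed at either dose, with medians of -0.17 and 0.03. Of these, Plcd1 (a phospholipase C) had -0.14 and 0.03, then -0.18 and -0.13, and the calcium-binding protein gene Calb1 0.09 and -0.64, then -0.03 and 0.03. In that fit none of 5 retinoid pathway genes passed, with medians of -0.01 and 0.06. The retinoic acid receptor gene Rarb, itself a retinoic acid target, had 0.05 and 0.07, then 0.08 and 0.06, all within 0.10 of 0 (0.06 ± 0.07 and 0.07 ± 0.07). The binding protein gene Crabp2 had -0.09 and 0.06, then 0.07 and 0.10. Top2a, of dividing cells, had -0.01 and -0.09, then -0.06 and -0.14, and Actb -0.01 and -0.10, then -0.13 and -0.13 (adjusted p = 0.649 and 0.0709 at the high dose). The deposited ratios gave both a positive sign, and with a mean for each retinoic acid batch the high-dose adjusted p of Actb was 0.00967.

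The comparison between the doses asked whether 150 mg/kg/day gave more than 50 mg/kg/day. Of 222 probes tested, 2 passed, which is 0.901%, both higher at the high dose, and 21 had an unadjusted p under 0.05. Rps7, a protein of the small ribosomal subunit, had -0.07 and -0.11 at the low dose and 0.18 and 0.37 at the high dose, so the doses lay on opposite sides of 0. The difference was 0.36 ± 0.08 (adjusted p = 0.00894), and Rps7 rose over vehicle at the high dose (0.28 ± 0.05, adjusted p = 0.00134). It no longer passed as a difference without low-dose array 2 or without high-dose array 2. The other was UGT1A2, below background in both channels of both low-dose arrays, for which no fold is given.

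With a mean for each retinoic acid batch 17 probes passed between the doses (7.66%), and 4 of them are given here, chosen after their values were seen. In each, the array pairs of the doses did not overlap. The same held for many of the 204 probes with a value on all 4 arrays: the high-dose pair lay above in 49 and below in 45. HSST lay nearer vehicle at the high dose (difference 0.49, adjusted p = 0.00105). Vegfa, the main endothelial growth factor, had -0.21 and -0.25 at the low dose and 0.17 and 0.11 at the high dose (difference 0.36, adjusted p = 0.00105). Fn1, the fibronectin gene, went the other way, with 0.18 and 0.17, then -0.09 and -0.20 (difference -0.32, adjusted p = 0.00301). Serpinh1 differed by -0.19 (adjusted p = 0.0273). In the fit over 15 groups the difference of Vegfa had an adjusted p of 0.776.

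For the 5 genes that passed at both doses, the dose difference was -0.10 ± 0.09 for Flt4, -0.05 ± 0.06 for Hspa4, -0.05 ± 0.07 for Col5a2, 0.01 ± 0.16 for Serpina1 and -0.07 ± 0.17 for Foxj1. None passed, which does not show that the doses acted alike. Over all probes the median absolute difference between doses was 0.10 and the median standard error 0.12. Of 204 probes with a value on all 4 arrays, 45 were above 0 on every array and 45 below.

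**Figure D3:**
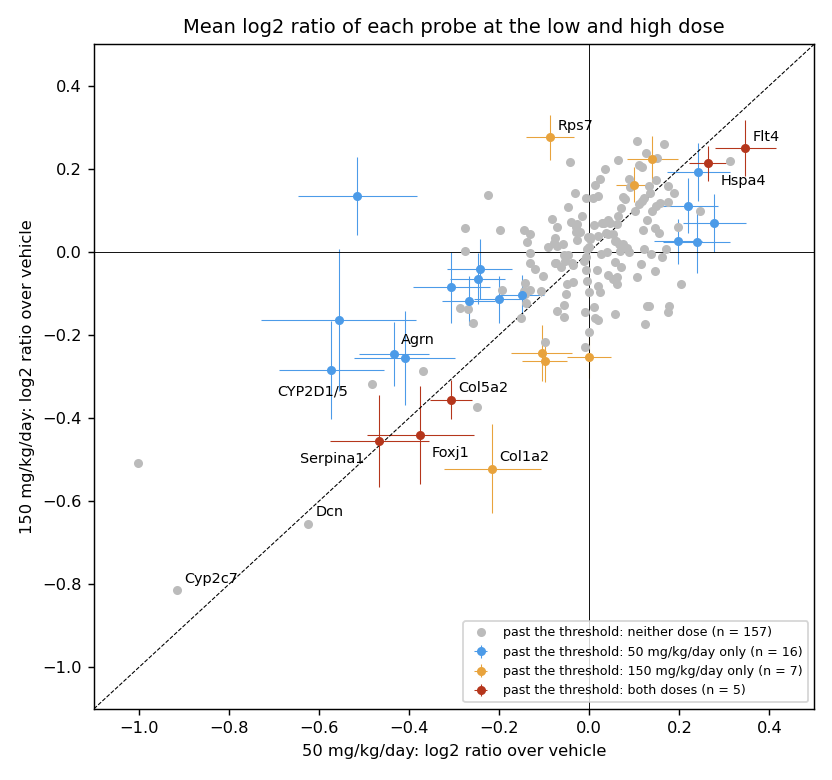
Mean log2 ratio over vehicle of 185 probes tested at both doses, low dose on the x axis and high dose on the y axis, with standard errors for the probes past the threshold. The dashed line marks equal ratios. The 5 probes past at both doses lie near it, Rps7 lies above it, and Dcn and Cyp2c7 lie at its lower end without passing.

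The maternal liver of the same day and doses, on arrays of the same array batch, was compared to see where the embryo differed. At the low dose 26 of 224 probes passed (11.6%), 8 higher in the embryo (3.57%) and 18 lower (8.04%). At the high dose 37 of 238 passed (15.5%), 12 higher (5.04%) and 25 lower (10.5%). The lowest embryo values relative to liver were those of drug-inducible P450s, among probes with neither channel below background on every embryo array. The filter counted embryo and liver arrays together, so a probe could be tested through its liver signal. Ugt2b, a glucuronosyltransferase with 1.32 and 1.21 in maternal liver at the low dose, was below background in both embryo channels there and is given no fold. CYP2B1/2 had 2.02 and 2.20 in maternal liver at the low dose and 5.17 and 5.38 at the high dose, against -0.41 and -0.46, then -0.27 and -0.08 in the embryo. The embryo was lower by -2.55 ± 0.18 and -5.45 ± 0.18. At the high dose CYP2B1/2 was tested through its liver signal, with too few embryo arrays above background. Cyp3a23-3a1, the inducible CYP3A of rat liver, had 1.76 and 1.77, then 2.87 and 2.96 in maternal liver. In the embryo it had 0.07 and 0.25, then -0.28 and 0.02, close to 0, and the differences were -1.61 ± 0.15 and -3.05 ± 0.15. At the low dose Cyp3a23-3a1 was likewise tested through its liver signal. Both probes read near background in the embryo, with high-dose normalized intensities of 77 to 106 for CYP2B1/2 and 99 to 141 for Cyp3a23-3a1. A change in the embryo could be missed there.

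Cyp7a1, which starts bile acid synthesis from cholesterol, had 0.77 and 0.87 in maternal liver at the high dose and -0.21 and 0.02 in the embryo (difference -0.92 ± 0.12, adjusted p = 1.1e-05). For UGT1A1, which conjugates bilirubin, the pairs were 0.87 and 0.86 against -0.19 and -0.03 (difference -0.97 ± 0.10). Cyp2e1, the ethanol-inducible P450, changed sign with dose in maternal liver, with 0.40 and 0.31 and then -0.69 and -0.58. In the embryo it was below 0 at both doses, with -0.31 and -0.43 and then -0.22 and -0.36. The difference passed at the low dose (-0.73 ± 0.20, adjusted p = 0.0154) and had an adjusted p of 0.288 at the high dose.

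In the other direction, Junb, an AP-1 immediate early gene, had -1.23 and -1.23 in maternal liver at the high dose and -0.08 and -0.20 in the embryo (difference 1.09 ± 0.21, adjusted p = 0.000737). Egf, the epidermal growth factor gene, had -0.89 and -0.89 in maternal liver against -0.13 and -0.03 in the embryo at the high dose (difference 0.81 ± 0.06). Ybx3, a cold shock domain protein, lay below 0 in maternal liver and above 0 in the embryo at both doses. Its embryo ratios were 0.13 and 0.17, then 0.19 and 0.27, with differences of 0.71 ± 0.13 and 0.54 ± 0.13. At the low dose the protease inhibitor gene Timp2 and Acta2 differed by 0.57 ± 0.08 and 0.65 ± 0.20, with ratios of -0.49 and -0.48 and of -0.65 and -0.64 in maternal liver, and near 0 in the embryo. At the high dose Acta2 in maternal liver was 0.17 and 0.20, and the difference was -0.12 ± 0.20 (adjusted p = 0.811).

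Among the genes that passed at both doses in the embryo, Flt4 was also higher in the embryo than in maternal liver at the low dose (0.36 ± 0.09, adjusted p = 0.0121; 0.10 ± 0.09, adjusted p = 0.600 at the high dose). Serpina1 was lower in the embryo at the high dose (-0.66 ± 0.16, adjusted p = 0.00572), with 0.16 and 0.24 in maternal liver. For Col5a2 neither difference passed: maternal liver had -0.17 and -0.13, then -0.47 and -0.42. Hspa4 had 0.09 and 0.10, then 0.14 and 0.16 there (adjusted p of the difference 0.0569 and 0.600).

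**Figure D4:**
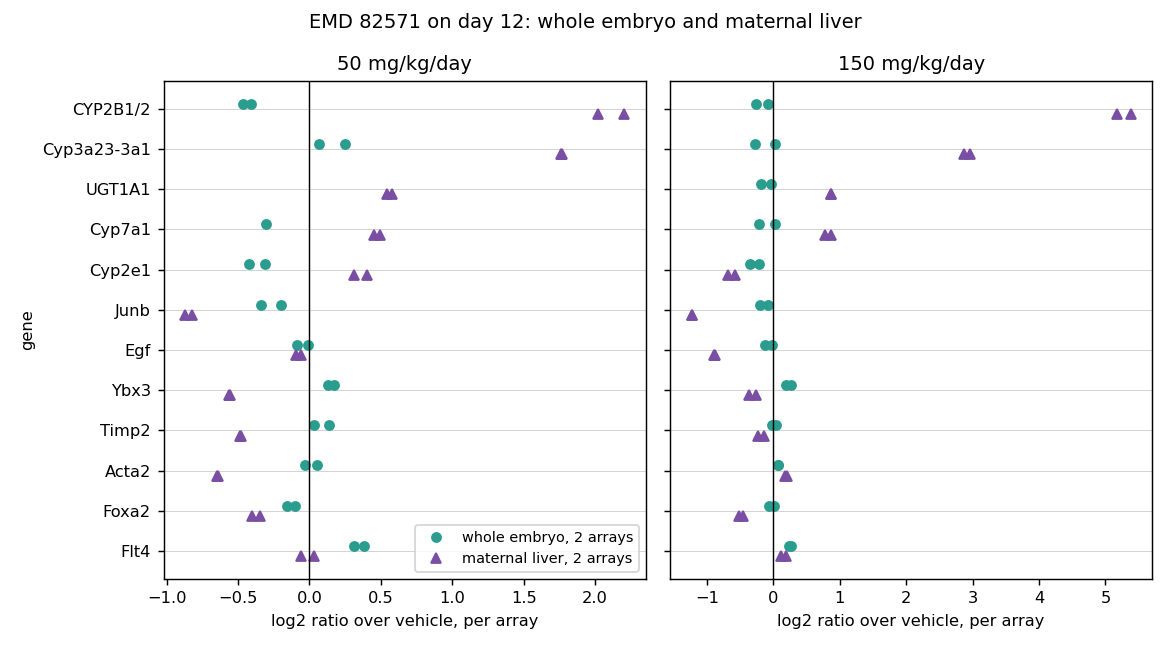
Log2 ratio over vehicle on each array for whole embryo (circles) and maternal liver (triangles) of day 12, with the low dose on the left and the high dose on the right. The scales of the panels differ. CYP2B1/2 and Cyp3a23-3a1 stand far right of 0 in maternal liver at both doses and within 0.5 of 0 in the embryo.

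Retinoic acid in the day-12 embryo served as the other comparison. Its 4 arrays fell into array batches A and B of 2 arrays each, and the labels give its dose in conflicting ways. The sample titles of batch B also carry another number beside retinoic acid than those of batch A. A difference in dosing between the batches therefore cannot be told apart from the array batch. Against the 2 arrays of batch A, the batch of the EMD 82571 arrays, 84 of 233 probes passed for the high dose (36.1%), 34 higher with EMD 82571 (14.6%) and 50 lower (21.5%). The lowest differences were those of Dcn, Serpina1, HSP70.1, Hnf4a and Vegfa. Dcn had -0.71 and -0.60 with EMD 82571 and 1.32 and 1.55 with retinoic acid (difference -2.09 ± 0.08, adjusted p = 1.75e-15). Serpina1 had -0.40 and -0.51 against 1.15 and 1.29 (difference -1.68 ± 0.10). Both genes thus lay on opposite sides of vehicle with the compounds, on these arrays.

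The retinoic acid arrays of batch B gave other values. They had 0.09 and 0.06 for Dcn, 0.65 and 0.69 for Serpina1, 0.05 and -0.09 for Hnf4a, and -0.19 and -0.09 for Vegfa. In batch A Hnf4a had 1.14 and 1.27 and Vegfa 1.62 and 1.66. For HSP70.1, a probe for the inducible HSP70 genes, batch A had 1.72 and 2.11 and batch B -0.53 and -0.64, against 0.30 and 0.22 with EMD 82571. Batch B was not run with EMD 82571 in the day-12 embryo, so the differences were tested within batch A alone, and Serpina1 is the gene of these 5 that lay clearly above vehicle in both batches.

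On the other side, Mmp24, a membrane-bound metalloprotease, had 0.10 and -0.06 with EMD 82571 and -0.75 and -0.82 with retinoic acid of batch A (difference 0.81 ± 0.09), against 0.06 and 0.01 in batch B. Cyp1b1, a P450 that also oxidizes retinoids, had 0.09 and 0.08 against -0.60 and -0.60 (difference 0.68 ± 0.07). The basement membrane collagen Col15a1, the fibroblast growth factor Fgf5 and the chaperone gene Hsph1 differed by 0.63, 0.59 and 0.58. Flt4 and Hspa4, which rose with EMD 82571, had 0.29 and 0.16 and 0.14 and 0.21 with retinoic acid of batch A. Their differences did not pass (0.02 ± 0.07, adjusted p = 0.838, and 0.04 ± 0.05, adjusted p = 0.662). Col5a2 did differ, with 0.15 and 0.20 under retinoic acid (difference -0.53 ± 0.06).

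**Figure D5:**
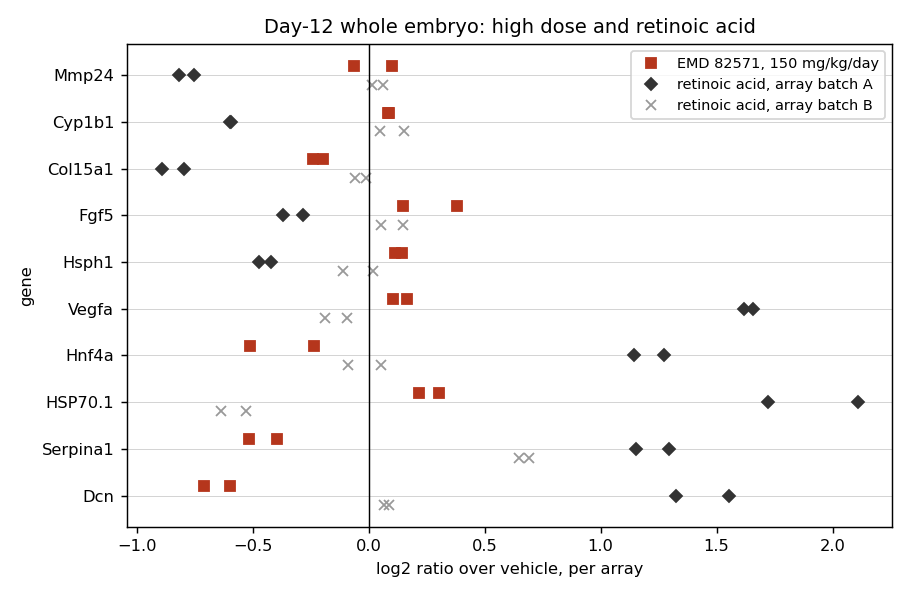
Log2 ratio over vehicle on each day-12 whole-embryo array for the 10 genes named for the difference between the high dose of EMD 82571 (squares) and retinoic acid of array batch A (diamonds), with retinoic acid of batch B (crosses). The diamonds of Dcn, HSP70.1, Hnf4a and Vegfa lie above 1 and the crosses of the same genes below 0.1.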

How the data were processed

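Per the labels' protocols, mRNA isolated from total RNA was labelled with Cy3 (vehicle) or Cy5 (treated) and hybridised to 2-colour cDNA arrays of 1024 spots, each probe spotted up to 4 times. The deposited scanner files hold intensity per spot and its local background, per the file headers quantified with fixed circles (program version 4.1). The deposited value table holds log2 ratios made by the authors, which followed the ratio of spot means without background subtraction or centring. Other steps are not given in the sources used here. Names matched a RefSeq symbol (184), synonym (25) or full name (5) for 239 probes, and 25 were kept as written.

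Intensities were corrected with normexp (offset 50), log2(Cy5/Cy3) was normalized by global loess within each array, and unmarked spots were averaged (limma 3.58.1, R 4.3.3). A probe was tested if above background (local background plus 2 SD in at least 0.5 of its spots) in 1 channel on at least 2 arrays of the comparison. One mean per group was fitted over 34 arrays with moderated variance, two-sided, with Benjamini-Hochberg adjustment within each comparison and a threshold of 0.05. The retinoic acid comparison gave each array batch, set by the array number in the labels and file headers, its own mean.

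Text names up to 15 genes per direction for each dose and their difference, up to 5 per direction for other comparisons, up to 4 per gene list, and a fixed set that includes Rarb, Crabp2 and Actb. Members and lists were chosen with earlier results of these data known. On simulated data for the low-dose comparison over 184 genes, 10 of 18 changes of 0.25 (log2), 19 of 19 of 0.5 and 18 of 19 of 1 were called, and 2 of 128 unchanged genes. The simulated noise was normal and independent between arrays, with no dye effect of a gene, shared RNA or shift between array batches. The simulation therefore does not give the rate of false calls on the real arrays. Tables and figures used Python 3.11.15, pandas 2.3.3, numpy 2.4.6 and matplotlib 3.10.9.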

Additional observations from a re-analysis of the deposited data

Results flagged for a closer look

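Differences between doses and between tissues were tested directly, and those past the threshold are given here as values. Between the doses 2 probes passed, and Rps7, a ribosomal protein gene, was higher at the high dose by 0.36 (log2).

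Between embryo and maternal liver 26 probes passed at the low dose. The embryo was higher by 0.71 for Ybx3, 0.65 for Acta2, 0.57 for Timp2 and 0.36 for Flt4. It was lower for CYP2B1/2 (-2.55), Cyp3a23-3a1 (-1.61, tested through its liver signal), Cyp2e1 (-0.73) and Fgf1 (-0.65). At the high dose 37 passed. The embryo was higher by 1.09 for Junb, 0.81 for Egf, 0.54 for Ybx3 and 0.46 for Foxa2, a hepatic and endodermal transcription factor with -0.51 and -0.46 in maternal liver. It was lower for CYP2B1/2 (-5.45, tested through its liver signal), Cyp3a23-3a1 (-3.05), UGT1A1 (-0.97) and Cyp7a1 (-0.92).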

How the results depend on the processing

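Of the named genes past the threshold, 18 of 24 at the low dose and 12 of 14 at the high dose kept their direction under every alternative run. With either of their own arrays left out, 3 of 24 and 2 of 14 still passed. Without background subtraction the low-dose calls were 52.6% higher, against 28.0%. The counts over vehicle, 25 and 14, became 60 and 31 with median centring in place of loess (41.7% and 48.4% higher), 64 and 56 with array batch A alone, 55 and 56 with a mean for each retinoic acid batch, and 88 and 40 with the deposited ratios. The high-dose count was 22 with the day-12 embryo arrays of batch A alone. The dose difference, 2 in the main setting, gave 1 with median centring, 1 with both channels above background, 16 with batch A alone, 0 with the day-12 embryo arrays of batch A alone, 17 with a mean for each retinoic acid batch, 1 with dim and uneven spots kept and 0 with the deposited ratios. Embryo minus maternal liver at the low dose gave 57 with median centring, 14 with both channels above background, 77 with batch A alone, 79 with a mean for each retinoic acid batch and 52 with the deposited ratios. At the high dose it gave 18, 79 and 69 with both channels above background, batch A alone and the split batches, and 22 with hand-marked spots kept, an alternative chosen after seeing the data. The retinoic acid comparison gave 45 with the deposited ratios. The cause of these shifts was not tested. With single arrays left out the counts ran from 6 to 24 at the low dose, 7 to 15 at the high dose, 1 to 8 for the dose difference, 15 to 26 and 20 to 37 against maternal liver and 67 to 85 against retinoic acid. At the low dose the deposited ratios reversed CYP2D1/5 (0.57), Fgf1 (0.049), Col5a2 (0.12), Atf6b (0.37), Ostf1 (0.23), Atf4 (0.24), Crabp2 (0.48), Top2a (0.46), Actb (0.47) and Lama3 (-0.24). At the high dose they reversed Flt4 (-0.10), Col18a1 probe 1 (0.18), Top2a (0.33) and Actb (0.44). No paired analysis was possible because the labels give no replicate numbers. Subtracting a gene's average across groups gave 21 calls over vehicle at the low dose and 11 at the high dose. Of the main calls, 13 of 25 and 7 of 14 remained. Low-dose calls lost included Lamc1, Met, Itga9, Hapln1 and Itgav among the higher and Serpina1, Foxa3 and Pold3 among the lower. High-dose calls lost included Flt4, Timp1, Hspa4 and Bmp7 among the higher and Serpina1, Itgb6 and Tnc among the lower. This alternative could not be run for differences between groups.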
